A study of Homo sapiens with 4 samples.

Results

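Chromosome 21 held 297 of the 4148 peak intervals of HCT116 (7.16%) and 111 of the 1380 intervals of LoVo (8.04%) in S100A10 ChIP-seq of polyploid giant cancer cells (PGCCs) with daughter cells. An interval is a stretch of sequence that the peak caller listed as enriched in the ChIP library over the input library, and its summit is the position with the most tags. The members were all 345 lines of the HCT116 list and all 116 lines of the LoVo list on chromosome 21, with lines of equal start and end merged. They were divided at 14 Mb into the short arm with the pericentromere (summit below 14 Mb) and the long arm. The members were chosen by the measured peak counts, since the density of chromosome 21 was the highest of all autosomes in HCT116, so the density is described here and not tested.

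HCT116 and LoVo are established human colorectal cancer cell lines. Both were treated with CoCl2, a chemical mimic of hypoxia, at 535.5 μM for 48 h per the sample labels (the study's text gives another dose, a range of times and repeated treatment), and the surviving PGCCs and their daughter cells were used. Each cell line had 1 ChIP library precipitated with an antibody against S100A10 and 1 input library, giving 4 libraries in all, and no untreated library was among them. The ChIP and input libraries held 16561424 and 14962190 tags in HCT116 and 19762814 and 12925105 tags in LoVo. With 1 library of each kind per cell line there was no replicate error. All intervals in brackets below cover counting error only, and differences between the cell lines carry no test. The antibody lot also differed between the cell lines, and the effects of lot and cell line cannot be told apart.

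Chromosome 21 is acrocentric, with a small short arm that carries tandem ribosomal RNA (rRNA) genes, satellite repeats and segmental duplications, and a long arm that carries nearly all of its protein-coding genes. The rRNA genes are transcribed as a 45S precursor that is cut into the 18S, 5.8S and 28S rRNAs, and a long spacer separates the copies. Near-identical copies of the short arm sequence lie on the other acrocentric chromosomes, so that a read placed there may derive from another chromosome. S100A10 is a small calcium-binding family protein best known as the partner of annexin A2 at membranes.

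The PFKL promoter and the promoter of LOC124905043, an uncharacterized locus inside COL6A2, were the only chromosome 21 promoters that any interval reached, out of 488 with a sequence. A promoter here is the 250 bases before a gene start in the RefSeq sequences of GRCh38.p14. Both are printed 5′ to 3′ on the strand of the gene, with the bases inside the HCT116 interval in capitals. PFKL lies on the plus strand with its start at 44300053, and LOC124905043 lies on the minus strand with its start at 46112031.
PFKL, chr21:44299803-44300052: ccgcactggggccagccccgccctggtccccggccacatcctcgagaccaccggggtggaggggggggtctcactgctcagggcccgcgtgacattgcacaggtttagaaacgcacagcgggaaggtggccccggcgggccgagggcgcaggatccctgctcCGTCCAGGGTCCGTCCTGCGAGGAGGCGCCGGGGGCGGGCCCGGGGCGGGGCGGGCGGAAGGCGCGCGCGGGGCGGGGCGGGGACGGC
LOC124905043, chr21:46112032-46112281: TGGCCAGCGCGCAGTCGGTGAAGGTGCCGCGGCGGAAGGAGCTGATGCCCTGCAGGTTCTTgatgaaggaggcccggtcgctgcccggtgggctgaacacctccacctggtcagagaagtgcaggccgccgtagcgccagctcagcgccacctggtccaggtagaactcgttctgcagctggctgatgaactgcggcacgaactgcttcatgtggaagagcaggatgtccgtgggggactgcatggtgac
In the PFKL promoter, which has 78% G and C, 88 bases fell inside the interval. The letters GGGCGG, the GC box, occurred 7 times on both strands together, and 6 of these matches lay wholly inside the interval. GGGCGG occurred in 42.6% of all 35116 promoters. The hypoxia response element has ACGTG or GCGTG as its core letters, and on both strands together ACGTG occurred in neither promoter and GCGTG 1 time in the PFKL promoter, outside the interval. ACGTG occurred in 18.5% and GCGTG in 32.2% of all promoters. TATAAA occurred in neither promoter and in 10.7% of all promoters. In the LOC124905043 promoter, 61 bases fell inside the interval and GGGCGG did not occur.

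The intervals of chromosome 21 were crowded on the short arm side in both cell lines. In HCT116, 271 of the 297 intervals lay below 14 Mb and 26 on the long arm. In LoVo, all 111 intervals lay below 14 Mb and none on the long arm. The short arm intervals contained 319 summits in HCT116, with up to 6 summits in an interval, and 116 summits in LoVo, with up to 2. The last HCT116 interval below the border, at 13993800-13994123, had a pileup of 5.42 scaled tags at its summit, and the first above it, at 14223905-14224164 in RBM11, had a pileup of 6.32.

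**Figure D1:**
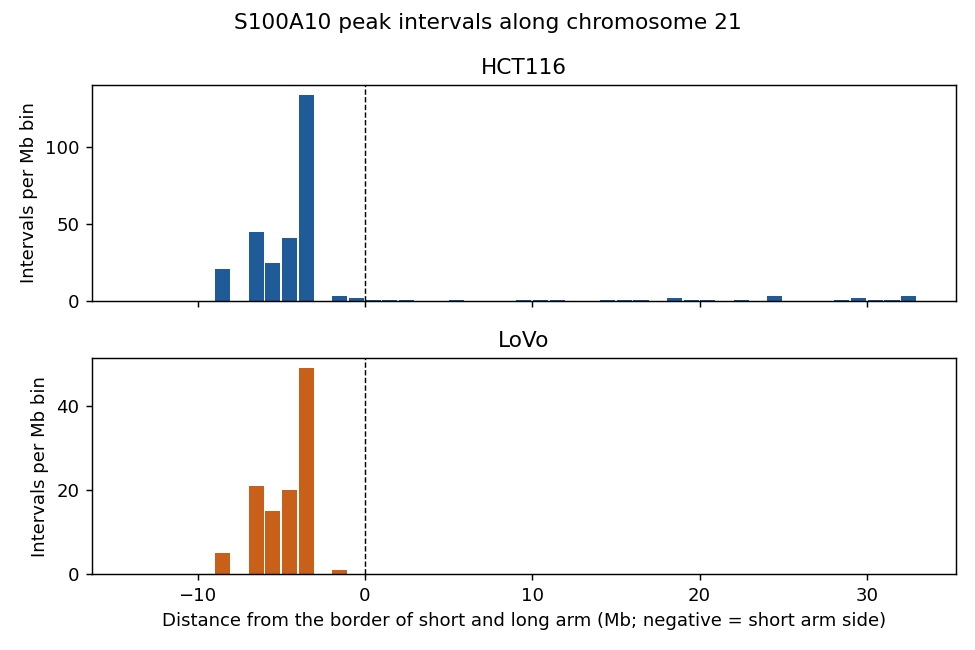
Number of S100A10 peak intervals in each 1 Mb bin of chromosome 21 (y axis) against the distance of the bin from the border of the arms in Mb (x axis, negative on the short arm side), for HCT116 (top) and LoVo (bottom, other y scale). The bars are high on the short arm side in both cell lines, with 271 and 111 intervals in all, and the long arm has 26 scattered intervals in HCT116 and none in LoVo.

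Counted to the end of the last annotated gene, chromosome 21 had 6.36 intervals per Mb in HCT116 (95% Poisson interval 5.66 to 7.13). The next autosomes were chromosome 17 with 3.66 and chromosome 22 with 3.29 intervals per Mb, and the median of the other 21 autosomes was 0.767. In LoVo, chromosome 21 was again the densest autosome, with 2.38 intervals per Mb (1.96 to 2.86), followed by chromosome 22 with 0.965, and the median of the others was 0.263. With a fold enrichment of at least 5 it ranked 5 in LoVo (0.0428, against 0.0853 on chromosome 19), and with a −log10 q of at least 2 it had 0.236 intervals per Mb, against 0.233 on chromosome 16. The short arm side alone had 19.4 intervals per Mb in HCT116 and 7.93 in LoVo over 14 Mb, or 30.1 and 12.3 counted from the first annotated gene. The long arm alone had 0.795 intervals per Mb in HCT116 (0.520 to 1.17). This lay close to the median autosome and below the 1.10 of all other autosomes combined, which were counted whole.

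Over the 32.7 Mb of the long arm, the density of the other autosomes would give 36.1 intervals in HCT116 and 9.78 in LoVo, and the median autosome would give 25.1 and 8.59. The observed numbers were 26 and 0. The other autosomes were counted whole, with their pericentromeres, so an arm is set here against whole chromosomes. A count of 0 allows up to 3 counts, or 0.0918 intervals per Mb. As a description, the other autosomes together had 0.299 intervals per Mb in LoVo, while chromosomes 11, 13 and 14, with 0.0666, 0.0175 and 0.0655, were under that limit. On the long arm of HCT116, 20 of 33 bins of 1 Mb held an interval (60.6%), against 40.8% of 2839 bins on the other autosomes. In LoVo the same counts were 0 of 33 and 10.04%, and the lowest autosome had 0.870%. The other acrocentric chromosomes were not alike in density over their whole span. Chromosomes 13, 14, 15 and 22 had 0.341, 0.767, 1.03 and 3.29 intervals per Mb in HCT116. In LoVo they had 0.0175, 0.0655, 0.226 and 0.965. These spans were not divided by arm, so the values do not describe the short arms of those chromosomes.

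**Figure D2:**
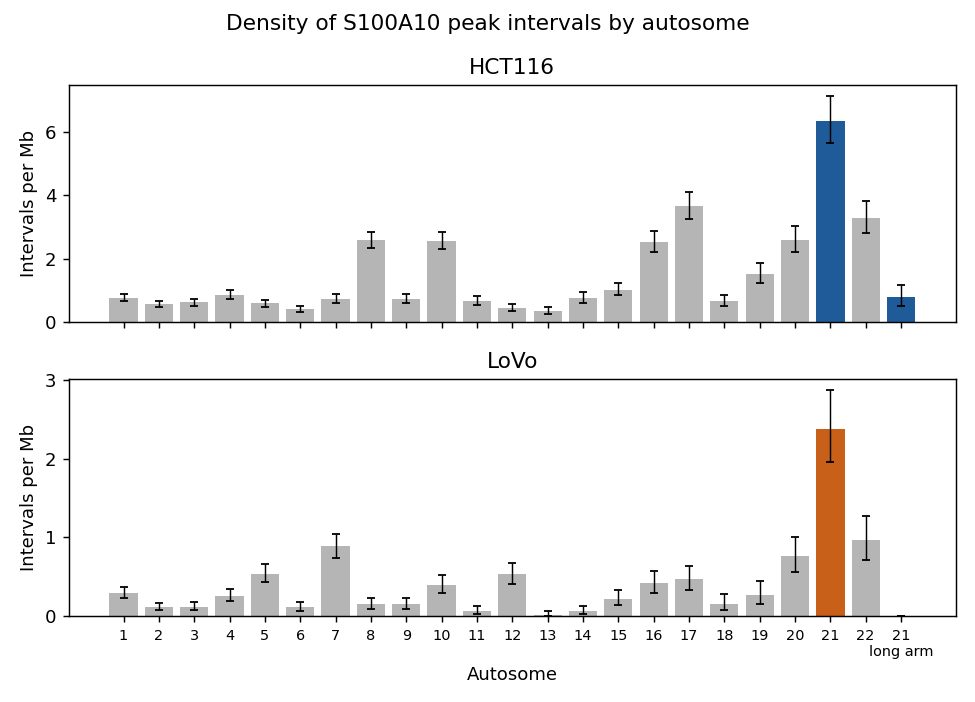
Peak intervals per Mb (y axis) for each autosome and, in the last bar, for the long arm of chromosome 21 alone, in HCT116 (top) and LoVo (bottom, other y scale), with 95% Poisson intervals as error bars where the count is above 0. Chromosome 21 (coloured) is the highest bar in both cell lines at 6.36 and 2.38 intervals per Mb, and its long arm falls to 0.795 in HCT116 and to 0 in LoVo.

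On the short arm side the intervals fell into blocks separated by more than 100 kb. The largest block, at 10270165-10814424, held 132 of 271 intervals in HCT116 and 49 of 111 in LoVo, which is 24.3 and 9.003 per 100 kb. It contains BAGE2 and TPTE. A block at 7916041-8048778 held 33 HCT116 and 14 LoVo intervals, and a block at 9652890-10050777 held 30 and 10. A block at 5216600-5355963 held 21 and 5, and a block at 7235731-7324690 held 14 and 8. No gene is annotated in the block at 7916041-8048778 or in these last 2 blocks. The median gap between neighbouring intervals on the short arm side was 1.60 kb in HCT116 and 5.63 kb in LoVo, and on the long arm of HCT116 it was 1215 kb, with a smallest gap of 70.2 kb. Long arm intervals therefore stood alone, with 1 summit each.

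The strongest intervals of chromosome 21 lay in the stretch from 8219631 to 8420746 around the 45S rRNA genes RNA45SN2, RNA45SN3 and RNA45SN1, and none lay inside an rRNA gene. In HCT116, 9 intervals between RNA45SN2 and RNA45SN1 had a −log10 q of 2.41 to 52.7, and in LoVo 8 intervals had 3.69 to 22.6. All 17 passed a q of 0.05, against 25.6% of all HCT116 intervals and 32.3% of all LoVo intervals. Of these, 7 of the 9 in HCT116 and 8 of the 8 in LoVo overlapped an interval of the other cell line, against 13.9% and 45.1% of the whole lists. No interval of either list overlapped any of the 14 annotated rRNA genes and rRNA pseudogenes of the chromosome. Only uniquely mapped reads without duplicates entered the lists, and reads that match several copies equally are not in them, so the listed values do not measure the full rRNA repeat.

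The interval with the highest −log10 q on chromosome 21 in HCT116, at 8219631-8220840, began 328 bp beyond the higher-coordinate end of RNA45SN2. Its pileup was 73.2 scaled tags, which equals 81 tags before scaling, with a fold enrichment of 12.4 over the local background and a −log10 q of 52.7. The overlapping LoVo interval at 8219662-8220325 began 359 bp beyond the same gene end. Its pileup was 89.6 scaled tags, or 137 tags before scaling, and the fold enrichment and −log10 q were 3.77 and 19.7. The highest summits of both cell lines lay 11 bp apart.

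The highest pileup of chromosome 21 in both cell lines was further along the same spacer, at 8234040-8234763 in HCT116 and 8234073-8234763 in LoVo. It reached 128 and 149 scaled tags with summits 2 bp apart. The fold enrichment was 4.17 in HCT116 and 2.89 in LoVo, both lower than at the interval next to RNA45SN2. The input background there was the highest measured on the chromosome, at 23.9 and 43.5 times the genome-wide mean. The interval inside CDC27P10, a transcribed pseudogene of the cell cycle gene CDC27 that lies in the rRNA spacer, came next by pileup in LoVo. It reached 99.4 scaled tags at 8419937-8420746 in HCT116 and 116 at 8419970-8420678 in LoVo, with a −log10 q of 47.0 and 19.7 and summits 202 bp apart. Among the other shared intervals beyond RNA45SN2, the −log10 q was 29.8 and 18.8 at 8228490-8228964 and 23.8 and 19.1 at 8229492-8229883, with summits 7 and 16 bp apart. At 8230322-8231141 the order was reversed, with a −log10 q of 2.41 in HCT116 and 3.69 in LoVo. The fold enrichment there was 2.92 and 3.76, and the summits lay 224 bp apart. A pair of intervals at 8231363-8231650 and 8233035-8233445, with a −log10 q of 11.7 and 13.99, was listed in HCT116 alone.

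**Figure D3:**
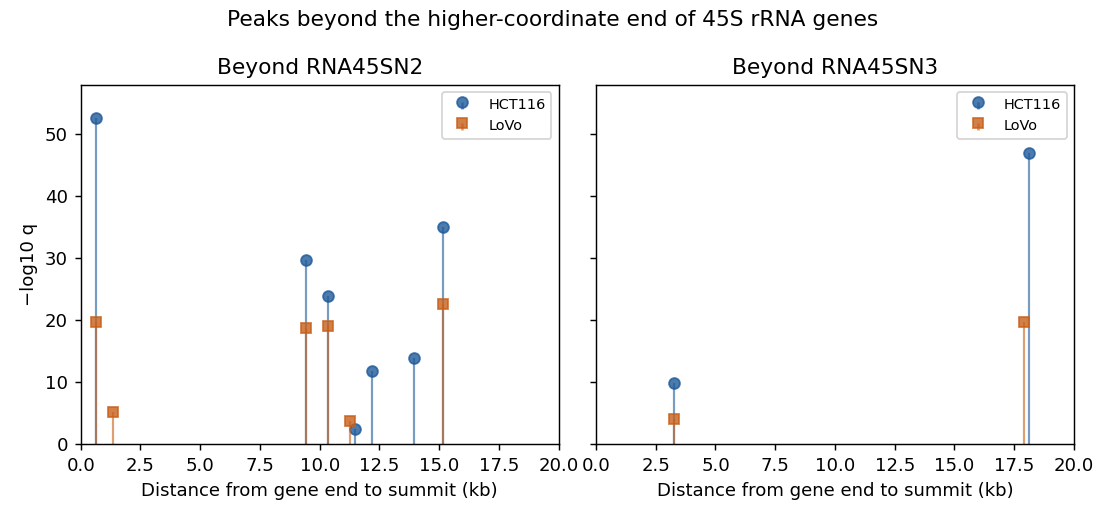
Strength of each interval between RNA45SN2 and RNA45SN1 as −log10 q (y axis) against the distance of its summit in kb from the higher-coordinate end of RNA45SN2 (left) or RNA45SN3 (right), in HCT116 (circles) and LoVo (squares). Most summits of both cell lines sit at nearly the same distances. The values of HCT116 are higher at most of these, up to 52.7 against 22.6. The LoVo summit 1.34 kb beyond RNA45SN2 lies 721 bp from the highest summit of the overlapping HCT116 interval. Beyond RNA45SN2, 2 HCT116 summits have no LoVo partner.

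The fourth strongest interval of the HCT116 short arm side lay outside the rRNA region, at 10692617-10693078, where no gene is annotated. Its pileup was 108 scaled tags, its fold enrichment 4.72 and its −log10 q 33.6. The overlapping LoVo interval at 10692622-10693075 had a pileup of 79.1 scaled tags, a −log10 q of 0.345 and 1.60-fold enrichment. The summits lay 35 bp apart. The local background was 17.5 times the genome-wide mean in HCT116 and 41.8 times in LoVo, so that a high tag count stood on a high input count in both cell lines, and only HCT116 passed a q of 0.05.

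Local background is the tag level that the peak caller expected from the input, and on the short arm side it was higher in LoVo relative to the genome-wide mean, as it was over the whole lists. It was calculated as (pileup + 1) / fold enrichment − 1. In HCT116 the median background of the 271 short arm intervals was 1.001 times the genome-wide mean (95% interval of the median 1.001 to 1.097), and 140 of them (51.7%) stood at that mean. In LoVo the median of the 111 intervals was 1.92 times the mean, and 9 of them (8.11%) stood at it. The whole lists had 55.2% and 16.2% of intervals at the mean. A background over 2 times the mean was found at 40 HCT116 intervals (14.8%) and 53 LoVo intervals (47.7%), against 13.96% and 46.8% of the whole lists, whose median backgrounds were 1.001 and 1.917 times the mean. A background over 5 times the mean was found at 6 HCT116 intervals (2.21%) and 12 LoVo intervals (10.8%), against 5.28% and 25.9% of the whole lists. The short arm side was near its list in the median and in the share over 2 times the mean, and below it in the share over 5 times the mean. The other autosomes had 60.1% of intervals at the mean in HCT116 and 21.5% in LoVo, so the share was lower in LoVo off chromosome 21 as well.

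Pileup on the short arm side ranged from 5.42 to 128 scaled tags in HCT116, with a median of 8.13, and from 5.23 to 149 in LoVo, with a median of 9.81. The 95% intervals of these medians were 8.13 to 9.03 in HCT116 and 9.16 to 10.46 in LoVo. Before scaling, the median was 9 tags in HCT116 and 15 tags in LoVo. The median fold enrichment was 3.65 in HCT116 and 3.03 in LoVo. The LoVo intervals thus combined a higher median pileup with a higher background and a lower fold. The whole lists did so too, with a median pileup of 7.23 scaled tags in HCT116 and 9.81 in LoVo. Their median fold enrichment was 3.50 and 3.08. A q of 0.05 was passed by 86 of 271 intervals in HCT116 (31.7%, 95% Clopper-Pearson interval 26.2 to 37.6) and by 18 of 111 in LoVo (16.2%, 9.90 to 24.4). The whole lists had 25.6% and 32.3%. The HCT116 short arm side thus stood slightly above its list and the LoVo short arm side below its own. A −log10 q of 0 was listed for 50 HCT116 intervals (18.5%) and 59 LoVo intervals (53.2%), against 22.8% and 47.3% of the whole lists. A fold enrichment of at least 5 was reached by 32 HCT116 intervals (11.8%, against 10.2% in the list) and 2 LoVo intervals (1.80%, against 6.23%).

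On the long arm of HCT116 the intervals had a median pileup somewhat below that of the list. Their pileup ranged from 5.42 to 9.94 scaled tags with a median of 6.32. This is 6 to 11 tags before scaling, and 10 of the 26 had 6 tags. The whole HCT116 list had a median of 7.23 scaled tags, or 8 tags, and the same lowest pileup of 5.42. The background stood at the genome-wide mean at 23 of the 26 intervals (88.5%, against 55.2% of the list), and the highest was 1.59 times the mean. The length was exactly 260 bp, the length to which each tag was extended, at 15 of 26 intervals (57.7%), against 33.4% on the other autosomes and 13.7% on the short arm side. A q of 0.05 was passed by 4 of 26 (15.4%, 4.36 to 34.9), and 11 (42.3%, against 22.8% of the list) had a −log10 q listed as 0. No long arm interval reached a fold enrichment of 5 (0 of 26, 95% Clopper-Pearson interval up to 13.2%), where 10.2% of the list did, a share inside that interval. The share passing the q limit was below the 25.6% of the list, though its interval included that value.

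**Figure D4:**
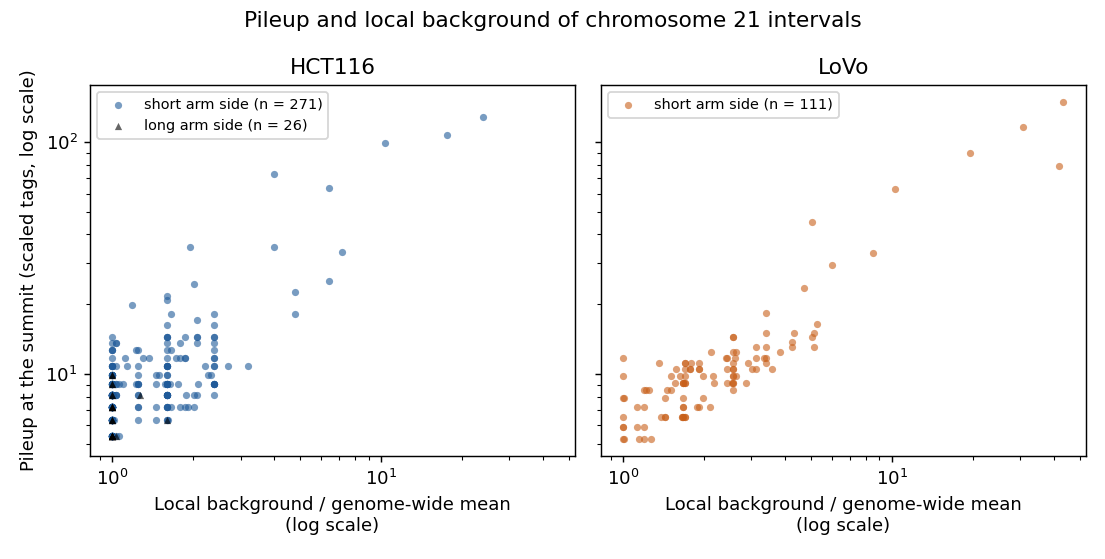
Pileup at the summit in scaled tags (y axis, log scale) against local background as a multiple of the genome-wide mean (x axis, log scale) for each chromosome 21 interval of HCT116 (left) and LoVo (right). Short arm intervals are circles and long arm intervals are black triangles; the long arm points reach a pileup of at most 9.94 at a background of at most 1.59, and the LoVo cloud is shifted to a median background of 1.92.

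Overlap of the cell lines could be measured on the short arm side alone, because LoVo had no long arm interval. With a minimum overlap of 1 bp, 57 of 271 HCT116 intervals (21.03%, 16.3 to 26.4) overlapped a LoVo interval, and 60 of 111 LoVo intervals (54.1%, 44.3 to 63.6) overlapped an HCT116 interval. The whole lists had 13.9% and 45.1%. Chromosome 22 had 18.6% and 59.2%, and the other autosomes together had 8.02% and 32.6%. The unplaced sequences had 37.0% and 71.3%, above the short arm side of chromosome 21. Since LoVo listed no interval on the long arm, the 26 HCT116 intervals there could not overlap any, and their distances to LoVo summits, of at least 1234010 bp, reach back to the short arm side.

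The 57 overlapping HCT116 intervals had a median distance of 85 bp from any of their summits to the nearest LoVo summit. Of these, 19 were within 50 bp and 43 within 250 bp. The 214 others had a median distance of 5043 bp. From the side of LoVo the medians were 82 bp and 2191 bp. The intervals were divided by overlap, so shorter distances in the overlapping group follow largely from that division. Between the highest summits of the 63 overlapping pairs the median distance was 190 bp. Overlapping intervals in HCT116 had a median pileup of 10.8 scaled tags, against 8.13 for the others, and 36 of 57 (63.2%) passed a q of 0.05, against 50 of 214 (23.4%). In LoVo, 13 of 60 overlapping intervals (21.7%) and 5 of 51 others (9.80%) passed it. The whole lists had 25.6% and 32.3%, so both LoVo shares were below that of their list. Overlapping intervals were also longer, with a median of 529 bp against 379.5 bp in HCT116 and 509.5 bp against 358 bp in LoVo. Whether overlap went with length or with tag level was not tested. All 5 intervals with the highest −log10 q on the short arm side overlapped the other list in either cell line. Of the 10 highest, 6 did in HCT116 and 9 in LoVo, of the 20 highest 14 and 13, and of the 50 highest 25 and 34.

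Over the 63 overlapping pairs, the background relative to the mean was higher in LoVo in 59 (93.7%) and the fold enrichment was lower in LoVo in 52 (82.5%). Over all 641 overlapping pairs of both lists the shares were 88.3% and 86.9%, so both were found across the lists. The median fold enrichment of the 63 chromosome 21 pairs was 4.31 in HCT116 and 3.21 in LoVo. Both members passed a q of 0.05 in 12 pairs (19.05%, against 47.7% of all pairs), and 8 of these lay in the rRNA region. The remaining 4 lay at 9365364-9366184, at 9821429-9821891, and as 2 HCT116 intervals against 1 LoVo interval at 10802291-10803865. The pair at 9365364-9366184, within LOC101927345, had a background at the genome-wide mean in both cell lines: its pileup was 14.5 scaled tags in HCT116 and 11.8 in LoVo, its fold enrichment 6.85 and 5.88, and its −log10 q 6.87 and 3.75.

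**Figure D5:**
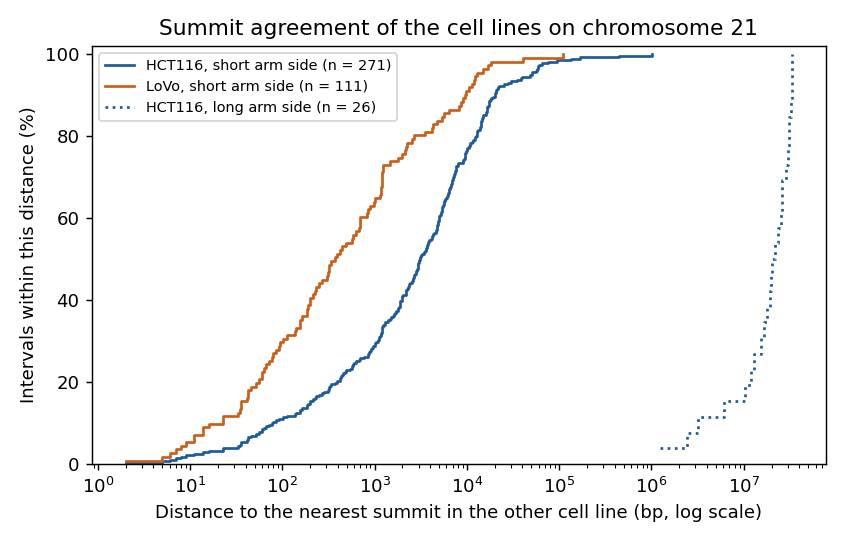
Cumulative percentage of intervals (y axis) by the distance of the nearest summit of the other cell line in bp (x axis, log scale), for the short arm side of HCT116 and LoVo (solid) and the long arm of HCT116 (dotted). The LoVo curve rises earlier than the HCT116 curve, with medians of 370 bp and 3131 bp, and the long arm curve, whose nearest LoVo summits all lie on the short arm side, begins at 1234010 bp.

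Gene bodies were touched by 62 of the 271 short arm intervals in HCT116 (22.9%) and 17 of 111 in LoVo (15.3%), where genes cover 21.6% of the annotated short arm side. Intervals overlapped 15 of 155 short arm genes in HCT116 (9.68%) and 9 of 155 in LoVo (5.81%), against 2.27% and 0.433% of all annotated genes. None of the 12 microRNA genes there had an interval. The files give no exons, so whether an interval within a gene was exonic or intronic is not given here.

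BAGE2, a transcribed pseudogene of the B melanoma antigen family of cancer-testis genes, held the most intervals of any gene on the chromosome. The gene spans 104778 bases, and its 2.77 intervals per 10 kb in HCT116 were close to the 24.3 per 100 kb of its block. Some shorter genes with fewer intervals had more per 10 kb. It contained 29 HCT116 intervals with a pileup of 6.32 to 22.6 scaled tags and a median of 9.94, and 14 of them passed a q of 0.05, where 25.6% of the whole HCT116 list did. The strongest, at 10417221-10417958, had a −log10 q of 11.1. LoVo had 7 intervals in BAGE2 with a pileup of 9.16 to 16.4, and none passed a q of 0.05, where 32.3% of the whole LoVo list did. The median background in BAGE2 was 1.78 times the mean in HCT116 and 3.40 times in LoVo.

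TPTE, a testis-expressed gene that neighbours BAGE2, held 10 HCT116 intervals and no LoVo interval. Their pileup was 5.42 to 9.03 scaled tags, and none passed a q of 0.05, with a highest −log10 q of 1.27. LINC01666, a long noncoding RNA gene, held 8 HCT116 intervals (none passing a q of 0.05) and 4 LoVo intervals (1 passing), beside the same list shares of 25.6% and 32.3%. EIF3FP1, a pseudogene of a translation initiation factor subunit, held 1 interval in each cell line with overlapping positions, with a pileup of 13.6 and 15.0 scaled tags. Its background was 1.04 times the mean in HCT116 and 4.32 times in LoVo, and the fold enrichment was 6.33 and 2.65. CDRT15P9 and CDC27P10 also had intervals in both lists, but those in CDRT15P9 did not overlap.

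On the long arm of HCT116, 18 of the 26 intervals lay in a gene body (69.2%), where genes cover 54.6% of the sequence. They lay in 18 of 680 genes (2.65%, against 2.27% of all annotated genes), 11 of them protein-coding out of 218 and 7 long noncoding RNA genes. The 17 microRNA genes and 148 pseudogenes of the long arm had none. The share of genes was close to that of the whole annotation. LoVo had none in 680 genes.

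PFKL, the liver-type subunit of the glycolytic enzyme phosphofructokinase, and DIP2A, a member of the disco-interacting protein family, had the highest pileups of the long arm. Each had 9.94 scaled tags, or 11 tags, at 4.85-fold enrichment and a −log10 q of 2.04. The PFKL interval, at 44299965-44300307, contained the gene start, with its summit 123 bp past it and the bases in capitals in its promoter sequence at the upstream side. PFKL was the only gene of chromosome 21 in the promoter table whose start lay in an interval. The DIP2A interval lay at 46459004-46459285. DSCR4, a noncoding gene of the Down syndrome region, and a gene-free interval at 43262504-43262785 each had 9.03 scaled tags and the same −log10 q of 2.04. These 4 were the long arm intervals that passed a q of 0.05.

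The other long arm protein-coding genes with an interval did not pass a q of 0.05. CLIC6, a chloride intracellular channel family member, and PAXBP1, a PAX3- and PAX7-binding protein, each had 8.13 scaled tags, with a −log10 q of 1.27 and 0.618. PCBP3, a poly(C)-binding protein, had 7.23 and RBM11, an RNA-binding splicing regulator, had 6.32 scaled tags. GRIK1, a kainate receptor subunit, DOP1B, RRP1, a ribosomal RNA processing factor, COL6A2, a collagen VI chain, and SPATC1L each had 5.42 scaled tags, or 6 tags, the lowest pileup of the HCT116 intervals on this chromosome, and a −log10 q of 0. The median distance from a long arm summit to the nearest gene start was 32.8 kb, with 3 of 26 within 1 kb and 10 within 10 kb.

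Intervals reached 2 of 488 chromosome 21 promoters in HCT116 (0.410%), against 64 of 35116 promoters in the whole table (0.182%), and 0 of 488 in LoVo, against 2 of 35116 (0.00570%). The share on chromosome 21 rests on 2 promoters. COL6A2 and LOC124905043 share the interval at 46112221-46112480 with its 6 tags, so they are not separate observations.

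Of 121 chromosome 21 genes in 12 groups chosen for known roles, 4 had an HCT116 interval (BAGE2, TPTE, COL6A2 and DSCR4) and 1 had a LoVo interval (BAGE2). Over all annotated genes the shares were 2.27% and 0.433%, so few of 121 genes would hold an interval at that share, and groups without one are listed as a description only. The 14 rRNA genes and pseudogenes, 59 keratin-associated protein genes, 9 transcription factor genes including RUNX1 and ETS2, 5 kinase genes, 4 interferon receptor genes, 3 tight junction genes and 3 trefoil factor genes had none. S100B, a relative of S100A10 that lies on the long arm, had its nearest HCT116 interval 139 kb away, and SUMO3, a small ubiquitin-like modifier, 505 kb away. TIAM1, an exchange factor for the GTPase Rac, was 174 kb from the nearest interval. Among 10 genes of the extracellular matrix and adhesion, COL6A2 alone had an interval, and COL6A1 was 107 kb from the nearest.

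Chromosome 21 held none of the 10 intervals with the highest −log10 q in either list. Beside its 7.16% of the whole HCT116 list, it held 1 of the top 50 and 4 of the top 100. Beside its 8.04% of the LoVo list, it held 5 of the top 50 and 5 of the top 100. All of these lay in the rRNA region or, in HCT116, at 10692617-10693078.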

How the data were processed

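Chromatin of PGCCs with daughter cells was precipitated with different lots of S100A10 antibody in HCT116 and LoVo. The authors called peaks per cell line with MACS2 version 2.1.0.20150420, per the file headers, from uniquely mapped reads without duplicates, at a p cutoff of 0.005 (the supplementary methods state a threshold of 0.05) and with tags extended to 260 bp (HCT116) or 281 bp (LoVo). The aligner and genome build are not given in the sources used here. The deposited signal is the pileup at the summit, scaled by 0.903 in HCT116 and 0.654 in LoVo to the depth of the input. The deposited fold enrichment is a ratio to the local background after 1 was added to each. Scores deposited beside them are −log10 p and −log10 q. Both column names were damaged and were read by the column order of MACS. The headers state that q was not calculated, although the last column holds values.

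Lines were merged, divided at 14 Mb and compared with a minimum overlap of 1 bp in Python 3.11.15 with pandas 2.3.3 and scipy 1.17.1, and checked on simulated data. Unplaced sequence names were those of GRCh38, so gene extents and promoters came from RefSeq GRCh38.p14 (835 genes on chromosome 21). The members and lists were chosen with earlier results of these data known. Named genes were those at the top 5 intervals per list and arm, the 10 strongest protein-coding long arm genes, promoters in an interval and the 12 groups with an interval, and others were added after their values were seen. Intervals are exact Poisson, Clopper-Pearson or binomial intervals of the median at 95%.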

Additional observations from a re-analysis of the deposited data

How the results depend on the processing

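No paired analysis was possible because each group had 1 library. Of 95 values recomputed under 13 alternatives, 50 kept to the reported value and 45 did not. Keeping to it means within 1.5 times for a count and within the counting interval for a density, median or share. The 50 include values of 0 that could not move, because LoVo had no long arm interval to filter, count or match. Tags at a summit limit the depth, since long arm intervals rest on 6 to 11 tags. With a −log10 q of at least 2, the short arm counts were 74 in HCT116 and 11 in LoVo and the HCT116 long arm count was 4. With a fold enrichment of at least 5 these counts were 32, 2 and 0. The density of chromosome 21 fell to 1.67 intervals per Mb in HCT116 and 0.236 in LoVo with the q limit, and to 0.685 and 0.0428 with the fold limit. Chromosome 21 remained the densest autosome under both limits in HCT116 and under the q limit in LoVo (0.236, against 0.233 on chromosome 16), but it ranked 5 in LoVo under the fold limit. For the long arm alone the density was 0.795 in HCT116 and 0 in LoVo. With the border of the arms at 12 Mb, the LoVo long arm count was 1.

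The shares of matched short arm intervals were 10.8% in HCT116 and 81.8% in LoVo with the q limit, and 6.25% and 100% (of 2 intervals) with the fold limit. They were 9.59% and 23.4% with an overlap of at least 50% of both intervals. With summits at most 50, 100 or 250 bp apart, the LoVo shares were 18.9%, 29.7% and 43.2%, and the HCT116 shares at 50 and 100 bp were 7.01% and 11.1%. Genes with an interval on the short arm side of HCT116, the long arm of HCT116 and the short arm side of LoVo numbered 6, 3 and 3 with the q limit, 5, 0 and 2 with the fold limit, 29, 28 and 19 with gene bodies extended by 5 kb, and 2, 11 and 1 among protein-coding genes only.

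With the q limit, the median pileup was 12.7 scaled tags on the HCT116 short arm side, 9.49 on the HCT116 long arm and 33.4 on the LoVo short arm side, and the median background was 1.16 and 5.995 times the genome-wide mean on the short arm sides of HCT116 and LoVo. With the fold limit, the median pileup was 14 and 28.5 scaled tags and the median background 1.202 and 3.02 times the mean. Both limits select on the values they change. Counting every summit moved no count or median beyond these bounds, nor did the border at 16 Mb. No library could be left out, since each group has 1.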
